A study of Mus musculus with 37 samples.

Results

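The response of wild-type mouse colon to chronic dextran sodium sulphate (DSS) was compared with its response to acute DSS, gene by gene. DSS is a sulphated polysaccharide that, given by mouth, injures the colonic epithelium and is widely used to model colitis. The comparison used 18 of the 37 arrays of the series, all from C57BL/6J mice that were wild type for Timp1: 3 acute controls, 5 mice on acute DSS, 5 chronic controls and 5 mice on chronic DSS. Each array holds total RNA of the snap frozen colon of 1 animal on an Affymetrix Mouse Gene 1.0 ST array, and the other 19 arrays, all from Timp1 knockouts, served only to estimate the spread. The labels give no dose, duration, age or sex, and they do not say how chronic DSS was scheduled, when the colon was taken after the last DSS, or which stretch of colon was used. Values are log2 signals. For each gene the acute response is acute DSS minus acute control, the chronic response is chronic DSS minus chronic control, and the quantity tested is the chronic minus the acute response, called the difference of responses here. The error given is its standard error (SE) in limma, fitted to 19938 genes, and a gene passed at a Benjamini-Hochberg adjusted p under 0.05. A difference of responses of 1 is a 2-fold difference between the fold changes of the phases.

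Acute DSS injury breaks the epithelial barrier within days, and neutrophils, monocytes and cytokines then dominate the tissue while matrix is broken down and laid down again. In longer or repeated exposure, epithelium is rebuilt between or during injuries, and lymphocytes, plasma cells and scar tissue can accumulate. The colon wall sampled whole also holds smooth muscle, enteric neurons, vessels and fat, so a bulk signal can change with the mix of cells as well as within them. Fewer cells of a type and less RNA per cell cannot be told apart in such samples.

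Both phases had their own controls, so the 2 responses share no array, but the groups differ in more than exposure time. All 8 acute mice carried plain animal numbers, all 5 chronic DSS mice belonged to a numbered series 11, and of the chronic controls replicates 1 to 3 belonged to series 11 and replicates 4 and 5 to a series 14. Phase and animal series therefore cannot be told apart, and a difference of responses also holds any difference in time, handling or processing that acted unequally on controls and DSS mice. Nothing in the labels says whether the series are batches. Acute DSS replicates 1 and 3 stood apart from the other 3. Their mean signal of mature colonocyte genes was 9.49 and 8.42, against 10.54 to 10.69 in replicates 2, 4 and 5 and 11.60 to 11.64 in the acute controls. Chronic DSS replicates 2 and 5 had mean neutrophil signals of 7.39 and 7.22, close to the 6.99 to 7.10 of the chronic controls, while the other 3 lay between 8.72 and 8.80. Among the named genes, the calls of Ccn3, Cemip, Chil3, Col18a1, Hgf, Hoxd12, Hp, Il6, Mettl7b, Mir100, Mirlet7e, Mmp8, Pyy, Reg4, Retnlg, Saa3, Sycn, Timp1, Timp3 and Vcan ended without acute DSS 1 and 3 (adjusted p from 0.0507 to 0.292). The calls of Ascl2, Ccn3, Cemip, Chil3, Hp, Igkv5-43, Igkv8-30, Il6, Mettl7b, Mmp8, Retnlg, Saa3, Sycn, Timp1, Timp3 and Vcan ended without chronic DSS 2 and 5 (from 0.0502 to 0.158).

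In all, 3392 genes passed in the difference of responses, 17.0% of those tested: 1854 (9.3%) with the chronic response above the acute one and 1538 (7.71%) below it. With the median of each array subtracted, the split was 2785 higher against 1018 lower, because this scaling shifted the median of all genes from -0.01 to 0.07. Acute DSS changed 8211 genes (41.2%; 3863 higher, 19.4%, and 4348 lower, 21.8%) and chronic DSS 2864 (14.4%; 1154 higher, 5.79%, and 1710 lower, 8.58%). With the chronic response taken within series 11, from chronic controls 1 to 3 only, and the acute response as before, 2547 genes passed in the difference of responses, 2162 of them shared with the 3392. Without acute DSS replicates 1 and 3 the count was 1491, of which 1427 were shared. Leaving out acute control 3 or acute control 2, which left 2 acute controls, gave 1937 and 2046.

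The difference was mostly one of size. Of the 3392 genes, 2968 (87.5%) had the smaller response in the chronic phase, a share that stayed between 79.0% and 90.4% in the alternative fits. In 1460 genes the acute fall passed and the chronic response did not, and in 1195 the acute rise passed and the chronic response did not. Both responses passed in the same direction in 168 of the 3392, and 296 passed in the chronic phase without passing in the acute one, 146 of them rising and 150 falling. In 1666 (49.1%) every chronic DSS array lay beyond every acute DSS array in the direction of the difference, where over all genes 9.71% lay wholly above and 8.2% wholly below. In 100 genes, 0.502% of those tested, both responses passed with opposite signs. Among the 1134 genes with an acute response of at least 2-fold, the median ratio of the chronic to the acute log2 response was 0.37, and 1029 had the same sign in both. Among the 325 genes chosen instead for a chronic response of at least 2-fold, the acute response was as large, with a median ratio of 1.01. Each ratio favours the phase that chose the genes.

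**Figure D1:**
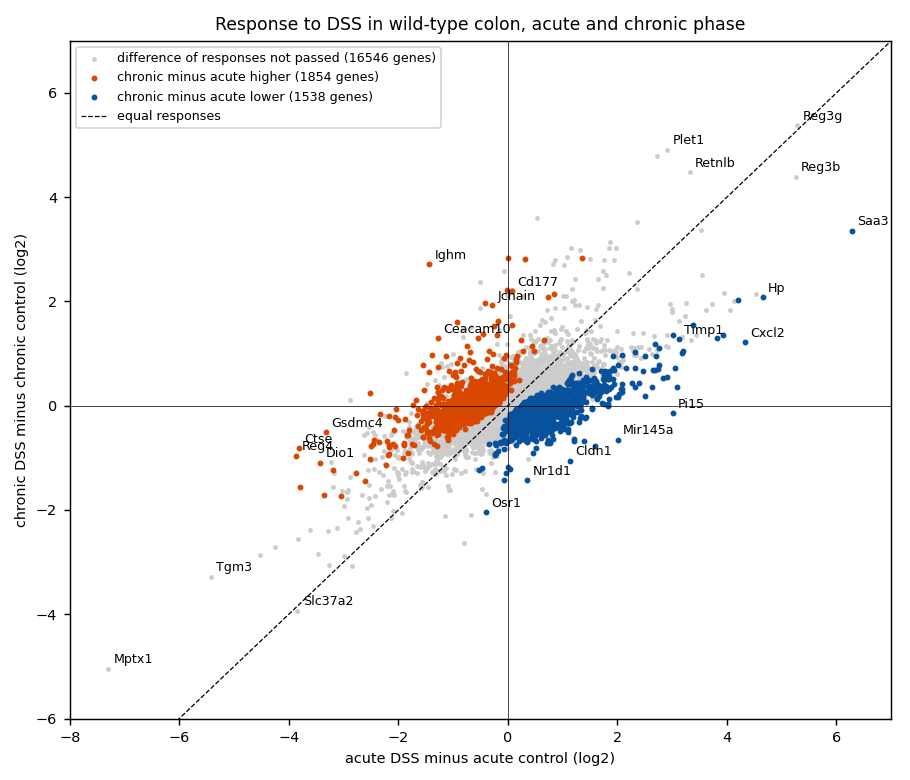
Each point is 1 of 19938 genes, with the acute response (acute DSS minus acute control, log2) across and the chronic response (chronic DSS minus chronic control, log2) upward. Orange points passed with the chronic response above the acute one (1854) and blue points below it (1538); most coloured points lie nearer the horizontal line of no chronic response than the dashed line of equal responses, while Reg3g and Slc37a2 lie close to the dashed line.

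Gene lists separated by tissue compartment. The lists and the members described were chosen with earlier results of these data known, so their counts describe and do not test. Medians over the members of a list stand beside a median of -0.01 over all genes. The lowest medians belonged to neutrophil genes (-1.57), metalloproteinases (-1.17), metalloproteinase inhibitors (-0.96), collagens and matrix glycoproteins (-0.94) and activated fibroblast genes (-0.89). The highest belonged to plasma cell and immunoglobulin genes (1.43), mature colonocyte genes (0.94), tight junction genes (0.82) and goblet cell genes (0.70). Cell cycle genes (0.15), B cell follicle genes (0.01) and interferon-gamma inducible genes (0.03) lay near the middle, and none of their 24, 19 and 14 members passed.

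**Figure D2:**
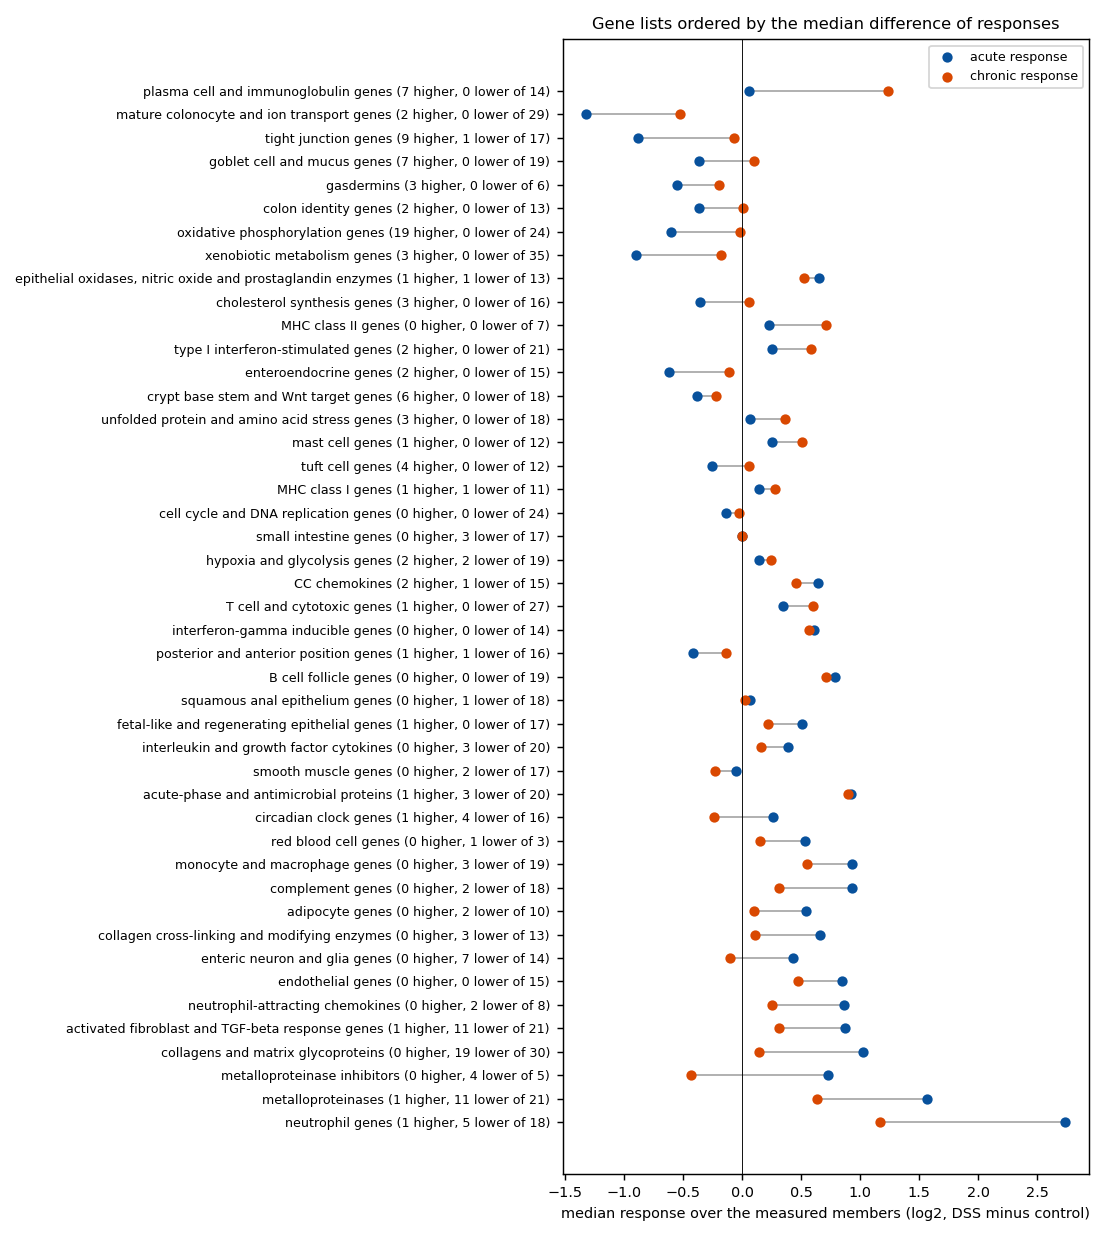
For each of 45 gene lists, the blue dot is the median acute response and the orange dot the median chronic response over its measured members (log2), with the number of members that passed in the difference of responses behind its name. Neutrophil, metalloproteinase and matrix genes at the bottom moved back toward 0 from a positive acute median, colonocyte and tight junction genes at the top from a negative one, and only plasma cell genes there moved from near 0 (0.06) to a clear rise (1.24).

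Some genes of neutrophil attraction and of the acute-phase response rose less in chronic than in acute DSS, and their calls rested on few arrays. Cxcl2, a chemokine that draws neutrophils through the receptor Cxcr2, stood at 5.42, 5.46 and 5.47 in acute controls and at 10.06, 10.28, 12.21, 8.14 and 8.22 in acute DSS. In chronic controls it stood at 5.78, 5.69, 5.58, 5.54 and 5.75, and in chronic DSS at 7.94, 6.25, 7.30, 7.17 and 5.78. The acute DSS arrays lay above all others, whereas chronic DSS arrays 2 and 5 lay at or just above the level of controls. Its rise of 4.33 in acute DSS passed and the 1.22 of chronic DSS did not (adjusted p = 1.4e-06 and 0.107), and the difference of responses was -3.11 ± 0.77 (adjusted p = 0.00685). With chronic controls of series 11 alone, a fit that also lacked the knockout arrays, it was -3.12, and the adjusted p was 0.0579. With animal series as a covariate on all arrays it was also -3.12 (adjusted p = 0.00889).

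Of 20 acute-phase and antimicrobial genes 13 rose in acute and 8 in chronic DSS (19.4% and 5.79% of all genes), and the difference of responses was negative in 14 and positive in 6, with a median of -0.35. Of these 3 passed lower and 1 higher, where 7.71% of all genes passed lower and 9.3% higher. Without acute DSS 1 and 3 none of the 20 passed in either direction. The lower count was 5 without chronic DSS 1 or acute DSS 4. Saa3, a serum amyloid of the acute-phase response, stood at 6.46, 6.38 and 6.35 in acute controls, at 13.05, 13.10, 13.35, 11.83 and 12.04 in acute DSS, at 6.42 to 6.71 in chronic controls and at 11.81, 8.82, 10.74, 10.10 and 7.90 in chronic DSS. Every chronic DSS array was above every control and below every acute DSS array. The rise passed in both phases (6.28 and 3.36, adjusted p = 1.34e-07 and 0.000377) and the difference of responses was -2.92 ± 0.96 (adjusted p = 0.0331). Haptoglobin (Hp), which binds free haemoglobin, rose 4.65 and 2.08, with a difference of -2.57 ± 0.73 (adjusted p = 0.0159). Il6, the cytokine that drives acute-phase genes, stood at 5.84 to 9.35 in acute DSS and at 4.66 to 5.59 in chronic DSS, against 4.63 to 4.96 in all 8 controls. Its acute rise of 2.62 passed, its chronic value of 0.37 did not, and the difference was -2.26 ± 0.74 (adjusted p = 0.0327). The call of Saa3 ended without any 1 of 7 arrays (all 3 acute controls, acute DSS 1 or 3, chronic DSS 2 or 5), with differences of -2.96 to -2.43 and adjusted p up to 0.0734. It also ended with animal series as a covariate (-2.89, adjusted p = 0.0533), with series 11 controls alone (-2.89, 0.0508), without both acute DSS 1 and 3 (-2.57, 0.118) and without both chronic DSS 2 and 5 (-1.91, 0.158). That of Il6 ended without any acute control, acute DSS 1 or 3 or chronic DSS 5, at -2.28 to -1.75 with adjusted p up to 0.0701, with series 11 controls alone (-2.31, 0.0573), without both acute DSS 1 and 3 (-1.51, 0.158) and without both chronic DSS 2 and 5 (-2.04, 0.0875). With animal series as a covariate on all arrays Il6 kept its call (-2.31, adjusted p = 0.0459). The difference of Hp was -2.25 without both acute DSS 1 and 3 and -1.60 without both chronic DSS 2 and 5 (adjusted p = 0.071 and 0.0873).

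Of 18 neutrophil genes, 15 rose in acute and 10 in chronic DSS, and 17 had a negative difference of responses. Of these 5 passed lower, 27.8% against 7.71% of all genes, and 1 passed higher, Cd177, described further on. Retnlg, a resistin-like protein of neutrophils, rose 4.21 and 2.03, with a difference of -2.18 ± 0.64 (adjusted p = 0.0191). The difference of Retnlg was -1.47 without acute DSS 1 and 3 and -1.48 without chronic DSS 2 and 5 (adjusted p = 0.119 and 0.0993). The neutrophil collagenase Mmp8 stood at 7.73 to 10.74 in acute DSS and 5.33 to 7.53 in chronic DSS, with a difference of -2.53 ± 0.81 (adjusted p = 0.0304). The difference followed single animals. Without acute DSS 1 and 3, without chronic DSS 2 and 5, or with series 11 controls alone, none of the 18 passed lower, and the counts without single arrays ran from 1 (without acute control 1 or acute DSS 1 or 3) to 10. The fit with series 11 controls alone also lacked the knockout arrays. All wild-type arrays alone gave 1, and animal series as a covariate on all arrays 4. The call of Mmp8 ended without any 1 of the 7 arrays that ended that of Saa3. Its difference was -1.65 without acute DSS 1 and 3 and -1.70 without chronic DSS 2 and 5 (adjusted p = 0.182 and 0.149). Of 8 neutrophil-attracting chemokines all had negative differences and 2 passed lower. None passed with series 11 controls alone, 1 with all wild-type arrays alone and 2 with animal series as a covariate. Of 20 interleukins and growth factor cytokines 3 passed lower, and 1 with series 11 controls alone, without either pair of arrays, or without acute DSS 3, acute control 2 or acute control 3.

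Promoter sequences are shown of 3 genes that passed lower and are textbook targets of the inflammatory factors NF-kB, C/EBP and AP-1. Each is the 250 bases before the RefSeq start (GRCm38.p6), 5′ to 3′ on the gene's strand, with matches in capitals to a kB motif (GGG, 2 free bases, TT, 1 free base, CC), TTGCNNAA (C/EBP) or TGANTCA (AP-1), on either strand.
Cxcl2, chr5:90903649-90903898, plus strand: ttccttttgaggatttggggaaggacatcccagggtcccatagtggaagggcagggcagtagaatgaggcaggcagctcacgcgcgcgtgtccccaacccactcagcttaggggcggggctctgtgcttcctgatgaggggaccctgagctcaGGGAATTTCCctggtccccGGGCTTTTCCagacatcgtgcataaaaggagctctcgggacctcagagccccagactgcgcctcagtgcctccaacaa
Saa3, chr7:46715677-46715926, minus strand: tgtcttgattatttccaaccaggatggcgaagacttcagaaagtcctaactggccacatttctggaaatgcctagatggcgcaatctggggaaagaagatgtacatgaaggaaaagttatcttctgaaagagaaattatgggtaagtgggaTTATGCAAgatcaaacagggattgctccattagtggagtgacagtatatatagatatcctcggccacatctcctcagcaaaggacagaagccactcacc
Il6, chr5:30012864-30013113, plus strand: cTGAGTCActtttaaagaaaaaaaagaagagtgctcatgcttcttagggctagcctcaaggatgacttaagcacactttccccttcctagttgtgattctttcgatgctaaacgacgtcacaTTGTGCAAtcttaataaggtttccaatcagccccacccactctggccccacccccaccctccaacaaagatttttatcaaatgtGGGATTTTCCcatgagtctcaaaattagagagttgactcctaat
The Cxcl2 window held 2 kB matches, starting 97 and 78 bases before the gene start, the Saa3 window 1 C/EBP match at 99 bases, and the Il6 window 1 match of each kind. Among 32851 promoter windows of this length, 4.11% held the kB motif, 9.56% the C/EBP motif and 6.75% the AP-1 motif. A match of letters is a description and shows no binding.

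Matrix and protease genes formed a broad group with a smaller chronic response. Of 30 collagens and matrix glycoproteins, 26 rose in acute DSS and 4 in chronic DSS, and 19 passed lower in the difference of responses (63.3% against 7.71% of all genes). None passed higher. Versican (Vcan), a proteoglycan of provisional matrix, stood at 9.33, 9.36 and 9.43 in acute controls, 12.04, 10.58, 12.37, 10.49 and 11.29 in acute DSS, 8.97 to 9.40 in chronic controls and 9.81, 9.20, 9.75, 9.72 and 8.68 in chronic DSS. All acute DSS arrays were above all other arrays, with replicates 1 and 3 highest, while chronic DSS overlapped its controls. The difference was -1.82 ± 0.54 (adjusted p = 0.021). The basement membrane collagen Col18a1 rose in both phases, by 2.50 and 0.96, and its difference was -1.54 ± 0.39 (adjusted p = 0.00696). Without acute DSS 1 and 3, the difference of Vcan was -1.25 and that of Col18a1 -1.19 (adjusted p = 0.131 and 0.0507), and 4 of the 30 matrix genes passed. Without chronic DSS 2 and 5, 12 passed, and Vcan stood at -1.49 (adjusted p = 0.0799). In series 11 controls alone 19 passed. The mean signal of endothelial genes moved with this list, at 10.26 and 10.23 in acute DSS 1 and 3 against 9.24 to 9.46 in the other 3, and its part in the result was not tested.

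Several secreted regulators of this group kept their calls in every alternative that was run. Here and below this covers the alternatives in which a gene was tested, since dim genes such as Pi15 and Dio2 had no value after the filter on dim genes. Pi15, a secreted peptidase inhibitor, had the lowest difference of responses of all named genes. It stood at 6.43, 6.36 and 6.56 in acute controls, 9.63, 10.02, 9.96, 8.51 and 9.16 in acute DSS, 6.70, 6.63, 6.98, 6.05 and 6.38 in chronic controls and 6.72, 6.17, 6.72, 6.47 and 5.95 in chronic DSS. The 5 acute DSS arrays lay more than 1 unit above every other array, and chronic DSS overlapped its controls, with replicate 5 just below them. The acute rise was 3.01 (8.04-fold), the chronic value -0.15 (adjusted p = 0.838), and the difference -3.15 ± 0.50 (adjusted p = 0.000257; -3.38 in series 11 controls). Pappa, a metalloproteinase that cleaves IGF-binding proteins, differed by -2.32 ± 0.50, and the activin subunit Inhba by -2.04 ± 0.45 (adjusted p = 0.00254 and 0.00315). Il11, a cytokine of activated fibroblasts, differed by -1.97 ± 0.49, and Bmp1, which trims procollagen ends, by -1.01 ± 0.21 (adjusted p = 0.00676 and 0.00221). In each of these 4 the acute rise passed (3.04, 2.74, 2.75 and 1.27) and the chronic value, 0.72, 0.70, 0.78 and 0.26, did not. Dio2, which activates thyroid hormone, differed by -2.35 ± 0.44, the lipase inhibitor Angptl4 by -2.30 ± 0.52, the fatty acid receptor Cd36 by -2.37 ± 0.58 and complement C7 by -1.26 ± 0.26 (adjusted p = 0.000938, 0.00354, 0.00667 and 0.00199). In Inhba and C7 every chronic control lay above every acute control, which makes up part of their differences. Hgf, a growth factor for epithelium, differed by -2.31 ± 0.59, and by -1.85 without acute DSS 1 and 3 (adjusted p = 0.00792 and 0.0531).

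Of 21 metalloproteinases 11 passed lower (52.4%) and 1 higher, and of 21 activated fibroblast genes also 11 lower and 1 higher, where 7.71% of all genes passed lower and 9.3% higher. Without acute DSS 1 and 3 each of these lists had 3 lower, and without acute control 2 each had 5. The inhibitors of metalloproteinases showed both directions in chronic DSS. Timp1 stood at 7.56, 7.56 and 7.76 in acute controls, 11.09, 10.94, 12.19, 9.47 and 10.05 in acute DSS, 7.28, 7.09, 7.07, 6.99 and 7.21 in chronic controls and 9.27, 7.93, 8.91, 8.72 and 7.20 in chronic DSS. Chronic DSS replicate 5 thus lay within its controls, and the highest chronic DSS array lay below the lowest acute one. The rise passed in both phases, and the difference was -1.84 ± 0.52 (adjusted p = 0.0151). Fitted on wild-type arrays alone it had an adjusted p of 0.0575, and with series 11 controls alone it was -1.86 (0.102). With animal series as a covariate on all arrays it was also -1.86 (0.0214). Without acute DSS 1 and 3 it was -1.25 (0.0885), and without chronic DSS 2 and 5 -1.28 (0.0763). Timp2, at 10.71 to 10.95 in acute controls, 11.31 to 12.03 in acute DSS, 11.19 to 11.54 in chronic controls and 11.04 to 11.36 in chronic DSS, rose by 0.84 in acute DSS, did not pass in chronic DSS (-0.12) and differed by -0.96 ± 0.23 (adjusted p = 0.00598). This call was kept in every alternative run, but every chronic control lay above every acute control, which makes up part of the -0.96. Timp3 differed by -1.16 ± 0.36 (adjusted p = 0.0271), with 4 arrays that each ended the call when left out (acute controls 2 and 3, acute DSS 1 and 3; -1.21 to -0.94, adjusted p up to 0.0759). Without both acute DSS 1 and 3 Timp3 stood at -0.70 and without both chronic DSS 2 and 5 at -1.08 (adjusted p = 0.171 and 0.0662). Its chronic controls also lay above every acute control, which makes up part of the -1.16. Timp4 fell in both phases, by -1.13 and -1.33 (difference -0.21 ± 0.38, adjusted p = 0.757; 95% interval -0.98 to 0.57).

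**Figure D3:**
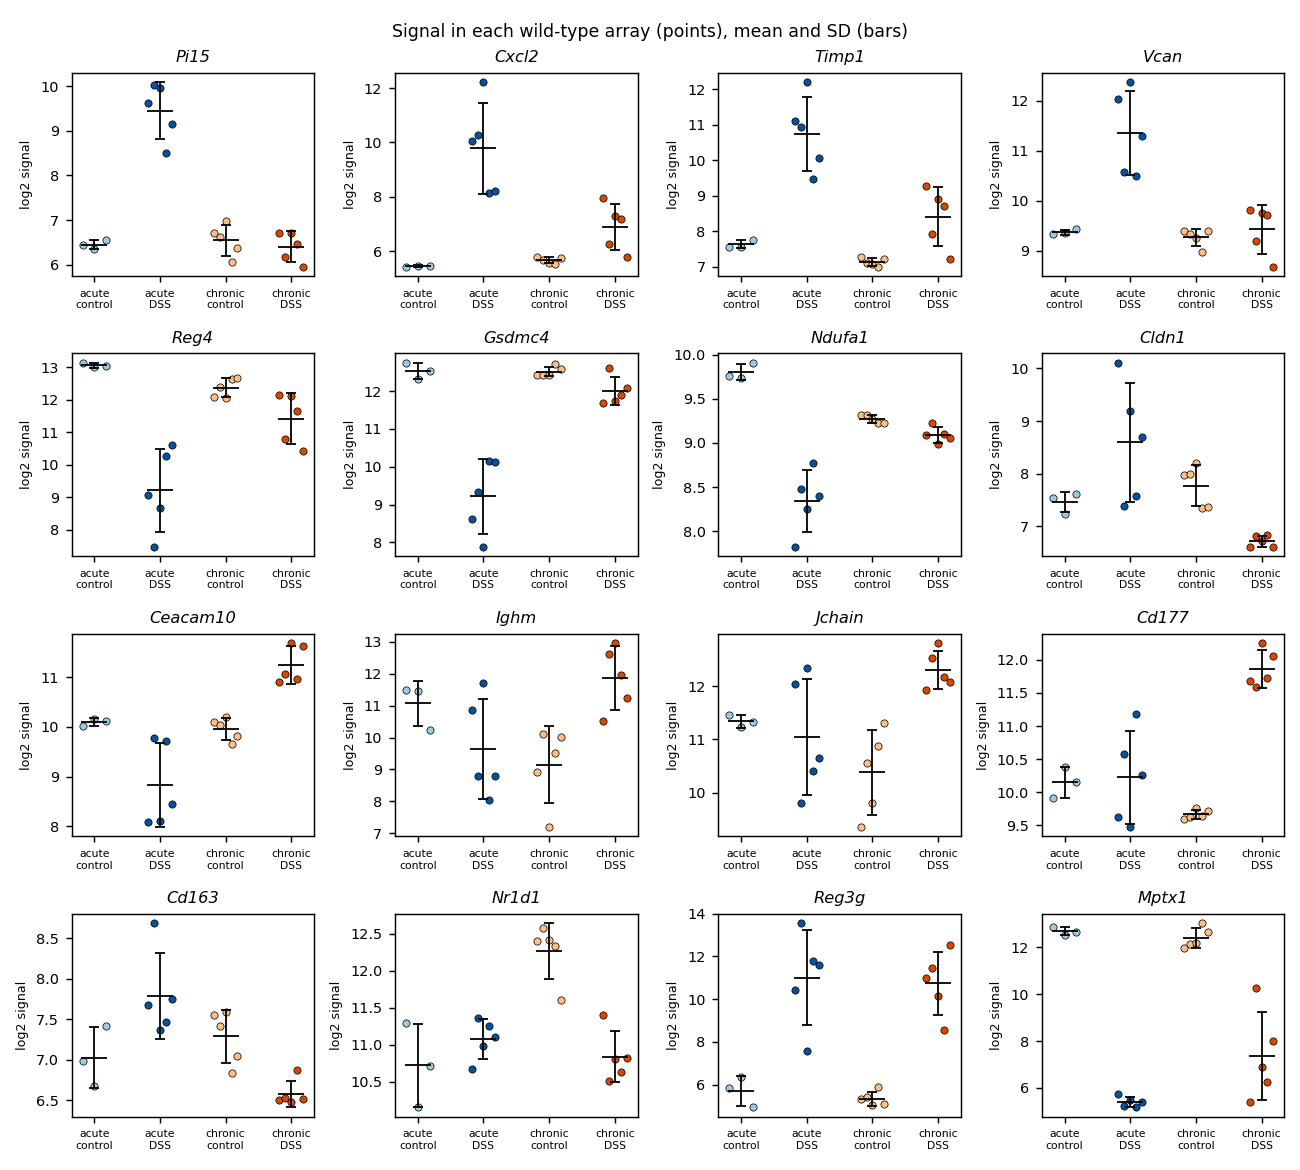
Log2 signal of 16 genes in each of the 18 wild-type arrays, by group (points), with the group mean and SD (bars). Pi15, Cxcl2, Timp1 and Vcan are high in acute DSS and lower in chronic DSS, Reg4, Gsdmc4 and Ndufa1 are low in acute DSS, and Ceacam10, Ighm, Jchain and Cd177 are highest in chronic DSS.

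Enteric neuron genes lay lower in chronic than in acute DSS. Of 14 neuron and glia genes 6 rose in acute DSS and 3 fell in chronic DSS, and 7 passed lower in the difference of responses (50.0%). Over all genes 19.4% rose in acute DSS, 8.58% fell in chronic DSS and 7.71% passed lower. Nos1, which makes nitric oxide in inhibitory motor neurons, stood at 8.44, 8.24 and 8.35 in acute controls, 9.97, 9.83, 9.77, 9.33 and 9.45 in acute DSS, 8.41 to 8.87 in chronic controls and 8.01 to 8.93 in chronic DSS. Every acute DSS array lay above all other arrays. Its difference was -1.40 ± 0.31 (adjusted p = 0.00301). Stmn2, a tubulin-binding protein of growing axons, did not pass in acute DSS (0.50) and fell by 0.80 on the log2 scale in chronic DSS, where its arrays (8.39 to 8.88) lay below all 5 controls (9.22 to 9.78). Its difference was -1.31 ± 0.33 (adjusted p = 0.00789). Both calls were kept in every alternative run, and 4 genes of the list passed without acute DSS 1 and 3 or without acute control 2. Of 17 smooth muscle genes none passed in acute DSS and 2 passed lower in the difference.

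MicroRNA loci stood out on one side. The array reads RNA from these loci, mainly precursors or host transcripts, and does not report mature microRNAs, which are too short for its labelling. Of 296 measured loci, 44 passed lower (14.9% against 7.71%) and none passed higher. With array medians subtracted there were 31 lower and 6 higher, and with array weights 74 and 7. Without acute DSS 1 and 3, 18 passed lower, without acute control 2 or 3, 25 and 19, and with series 11 controls alone, 23. With all wild-type arrays alone 37 passed lower, and with animal series as a covariate on all arrays 32. Most of the loci were dim. Only 77 of the 296 were left after the filter on dim genes, and of these 19 passed lower and none higher. Chronic controls were higher than acute controls in 19 of the 296 loci and lower in 2, where 3.5% and 3.52% of all genes were. The family of microRNA loci was picked out after its values were seen. Mir145a and Mir143, neighbouring loci whose microRNAs are made in smooth muscle and fibroblasts, had the lowest values. Mir145a stood at 8.52, 8.92 and 8.97 in acute controls, 11.54, 10.88, 10.40, 10.62 and 10.62 in acute DSS, 10.26, 10.04, 10.40, 9.69 and 10.02 in chronic controls and 9.26, 9.79, 8.48, 9.72 and 9.91 in chronic DSS. Acute DSS was at or above every other array, and chronic controls stood 1.28 above acute controls (adjusted p = 0.0165). The difference of responses was -2.66 ± 0.44 for Mir145a and -1.90 ± 0.36 for Mir143 (adjusted p = 0.000337 and 0.00107), and Mir143 passed with opposite signs, 1.22 in acute and -0.69 in chronic DSS. Smooth muscle genes had median responses of -0.05 in acute and -0.23 in chronic DSS and a median control difference of 0.28. Like their list mean, Mir143 was higher in series 11 controls (9.16 to 9.30) than in series 14 controls (8.34 and 8.94), and the part of smooth muscle content in these values was not tested.

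A second set of loci, named after their values were seen and outside the rule for named genes, is the group of 3 related clusters on chromosomes 9, 16 and 17, each with a miR-99/100, a let-7 and a miR-125 member. Mature 5′ sequences of the clusters (RefSeq, GRCm38.p6) are shown since members share a seed, bases 2 to 8, in capitals, and 6 of the 9 loci passed in the same direction. The 5′ sequence of Mirlet7a-2, on chromosome 9, is not shown.
miR-99a-5p, chr16:77598940-77598961: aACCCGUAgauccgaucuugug
miR-100-5p, chr9:41531437-41531458: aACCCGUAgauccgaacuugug
miR-99b-5p, chr17:17830194-17830215: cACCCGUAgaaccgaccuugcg
let-7c-5p, chr16:77599672-77599693: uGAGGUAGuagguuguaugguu
let-7e-5p, chr17:17830366-17830387: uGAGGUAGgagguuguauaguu
miR-125b-5p, chr16:77646279-77646300 and chr9:41581940-41581961: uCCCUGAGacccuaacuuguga
miR-125a-5p, chr17:17830817-17830840: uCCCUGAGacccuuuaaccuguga
All lie on the plus strand. Mir99a stood at 6.24, 6.31 and 6.12 in acute controls, 7.33, 7.25, 7.27, 7.06 and 7.14 in acute DSS, 6.63, 6.88, 6.93, 6.52 and 6.90 in chronic controls and 6.44, 6.68, 6.71, 6.89 and 6.22 in chronic DSS. The acute DSS arrays were above all other arrays, by a narrow gap to the chronic controls. Its difference was -1.17 ± 0.19 (adjusted p = 0.000351). Mirlet7c-1 (-0.73 ± 0.16), Mirlet7e (-0.78 ± 0.20), Mir125a (-0.55 ± 0.11), Mirlet7a-2 (-0.50 ± 0.11) and Mir100 (-0.54 ± 0.15) passed too. The other 3 did not pass: Mir99b at -0.11 ± 0.12, Mir125b-2 at -0.15 ± 0.08 and Mir125b-1 at -0.01 ± 0.14 (adjusted p = 0.561, 0.19 and 0.972). The calls of Mirlet7e and Mir100 ended without acute DSS 1 and 3 (-0.64 and -0.42, adjusted p = 0.0517 and 0.0771), and that of Mir100 also without acute control 2 (-0.48, adjusted p = 0.0512). Mir99a, Mir100, Mirlet7c-1, Mirlet7a-2, Mir125b-1 and Mir125b-2 were dim and had no value after the filter on dim genes. Within a seed group, probes for near-identical loci may share signal. Mir125a stood at 7.03 to 7.24 in acute controls, below all its other arrays (7.37 to 7.76), while the other 3 groups overlapped. Mirlet7a-2 stood at 5.17 to 5.36 in acute controls, 5.47 to 5.66 in acute DSS, 5.54 to 5.74 in chronic controls and 5.30 to 5.52 in chronic DSS. Mirlet7c-1 stood at 4.95 to 5.16 in acute controls and 5.16 to 5.82 in chronic controls. Lower acute controls thus make up part of the differences of Mir99a, Mirlet7c-1, Mir125a and Mirlet7a-2.

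Most epithelial lists had positive medians of the difference of responses, but mature colonocyte genes stayed below their controls in chronic DSS as well. Their mean was 10.68 to 11.15 in chronic DSS and 11.33 to 11.76 in chronic controls, without overlap. Of 29 mature colonocyte and ion transport genes, 20 fell in acute and 8 in chronic DSS, 26 had a positive difference of responses, and 2 passed. That is 6.9% where 9.3% of all genes passed higher, so these genes did not pass more often than the background. The count was 7 without acute DSS 2 and 0 without any 1 of chronic controls 1 and 2, acute DSS 1 and 3 and acute controls 2 and 3. It was also 0 on wild-type arrays alone and without either pair of arrays. Goblet cell genes passed in 7 of 19 (36.8% against 9.3%), tight junction genes in 9 of 17, with 1 lower, and crypt base and Wnt target genes in 6 of 18. Without acute DSS 1 and 3 these 3 lists had 3, 3 and 5 passing higher, and with series 11 controls alone 3, 1 and 5. With all wild-type arrays alone they had 3, 2 and 4, and with animal series as a covariate on all arrays 8, 7 and 6. Without acute control 3 they had 4, 4 and 3. Goblet cell and tight junction genes had 4 each without acute control 2, and goblet cell genes also 4 without acute DSS 1.

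Reg4, a lectin of secretory cells, stood at 13.15, 13.01 and 13.05 in acute controls, 9.05, 7.46, 8.65, 10.27 and 10.62 in acute DSS, 12.10, 12.39, 12.07, 12.65 and 12.68 in chronic controls and 12.14, 10.78, 12.11, 11.66 and 10.42 in chronic DSS. Chronic DSS replicates 2 and 5 reached down to the level of acute DSS replicates 4 and 5, and the other 3 lay close to controls. Its difference was 2.91 ± 0.79 (adjusted p = 0.0119), and 2.67 without acute DSS 1 and 3 (adjusted p = 0.0508). Gsdmc4, of the pore-forming gasdermins, stood at 12.75, 12.33 and 12.53 in acute controls, 8.61, 9.32, 7.88, 10.15 and 10.13 in acute DSS, 12.42, 12.43, 12.43, 12.72 and 12.57 in chronic controls and 11.68, 12.61, 11.74, 11.89 and 12.09 in chronic DSS. No acute DSS array reached any other array. Its acute fall was -3.32, the chronic value -0.51 did not pass, and the difference was 2.81 ± 0.43 (adjusted p = 0.000192; 2.89 in series 11 controls). Its near copy Gsdmc2 differed by 2.17 ± 0.49 (adjusted p = 0.00392), and reads or probes of such copies cannot be told apart with certainty.

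The aspartic protease cathepsin E (Ctse) stood at 11.39 to 11.52 in acute controls, 7.20, 6.97, 7.60, 8.36 and 8.09 in acute DSS, 11.79 to 12.20 in chronic controls and 10.85, 10.75, 11.91, 11.53 and 10.82 in chronic DSS. The acute DSS arrays lay far below every other array. Its difference was 3.0 ± 0.81 (adjusted p = 0.0112). Dio1, which like Dio2 acts on thyroid hormone, fell in both phases, by -3.43 and -1.09, and differed by 2.34 ± 0.52 (adjusted p = 0.00349), opposite in sign to Dio2. Spink4, a goblet cell peptide, differed by 2.02 ± 0.45, with chronic DSS at 12.67 to 13.18 and acute DSS at 9.88 to 12.22. The tuft cell genes Rgs13 and Trpm5 differed by 2.78 ± 0.66 and 1.44 ± 0.37, the progenitor factor Sox9 by 0.99 ± 0.23 and the pore-forming Cldn15 by 1.73 ± 0.44 (adjusted p = 0.00335, 0.00512, 0.00815, 0.00504 and 0.00733 for Spink4, Rgs13, Trpm5, Sox9 and Cldn15). Cldn15 rose in chronic DSS (1.04) and did not pass in acute DSS (-0.69). All of these, Ctse and Gsdmc2 included, kept their calls in every alternative run. The hormone gene Pyy differed by 1.28 ± 0.36 (adjusted p = 0.0139; 1.20 and 0.052 without acute DSS 1 and 3). Ascl2, a stem cell factor, differed by 0.96 ± 0.28, its call ending without acute control 3 (0.79, adjusted p = 0.088) or without chronic DSS 2 and 5 (0.86, adjusted p = 0.0502).

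Respiratory chain genes moved as a block. Of 24 oxidative phosphorylation genes 21 fell in acute DSS, none passed in chronic DSS (0 of 24, where 14.4% of all genes passed), and 19 passed higher in the difference of responses (79.2% against 9.3%), with all 24 positive. Without acute DSS 1 and 3 the count was 9, with series 11 controls alone 11, and without single arrays 17 to 20. With all wild-type arrays alone it was 15, and with animal series as a covariate on all arrays 20. Ndufa1, a complex I subunit, stood at 9.76, 9.74 and 9.91 in acute controls, 7.82, 8.48, 8.25, 8.77 and 8.40 in acute DSS, 9.32, 9.32, 9.27, 9.22 and 9.23 in chronic controls and 9.09, 9.23, 8.99, 9.10 and 9.05 in chronic DSS. The groups of arrays fell in distinct bands, acute controls highest and acute DSS lowest, with only chronic DSS and chronic controls touching. Its difference was 1.28 ± 0.22 (adjusted p = 0.000514). The chronic controls of Ndufa1 lay below its acute controls by 0.53, which makes up part of the 1.28. Of the 24 genes 6 were lower in chronic controls, where 3.52% of all genes were. The list mean was 11.25 in acute controls and 11.00 in chronic controls.  Cox5a, of complex IV, differed by 0.95 ± 0.19 (adjusted p = 0.00154). Its acute controls stood at 10.48 to 10.54 and its chronic controls at 9.97 to 10.08, which makes up part of the 0.95. The cholesterol enzyme Pmvk fell in acute DSS (-0.40) and rose in chronic DSS (0.44), a difference of 0.84 ± 0.21 (adjusted p = 0.00727). Its chronic controls (8.27 to 8.39) lay below its acute controls (8.66 to 8.85), and chronic DSS (8.64 to 8.86) stood at the level of acute controls. The control difference thus makes up part of the 0.84.

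**Figure D4:**
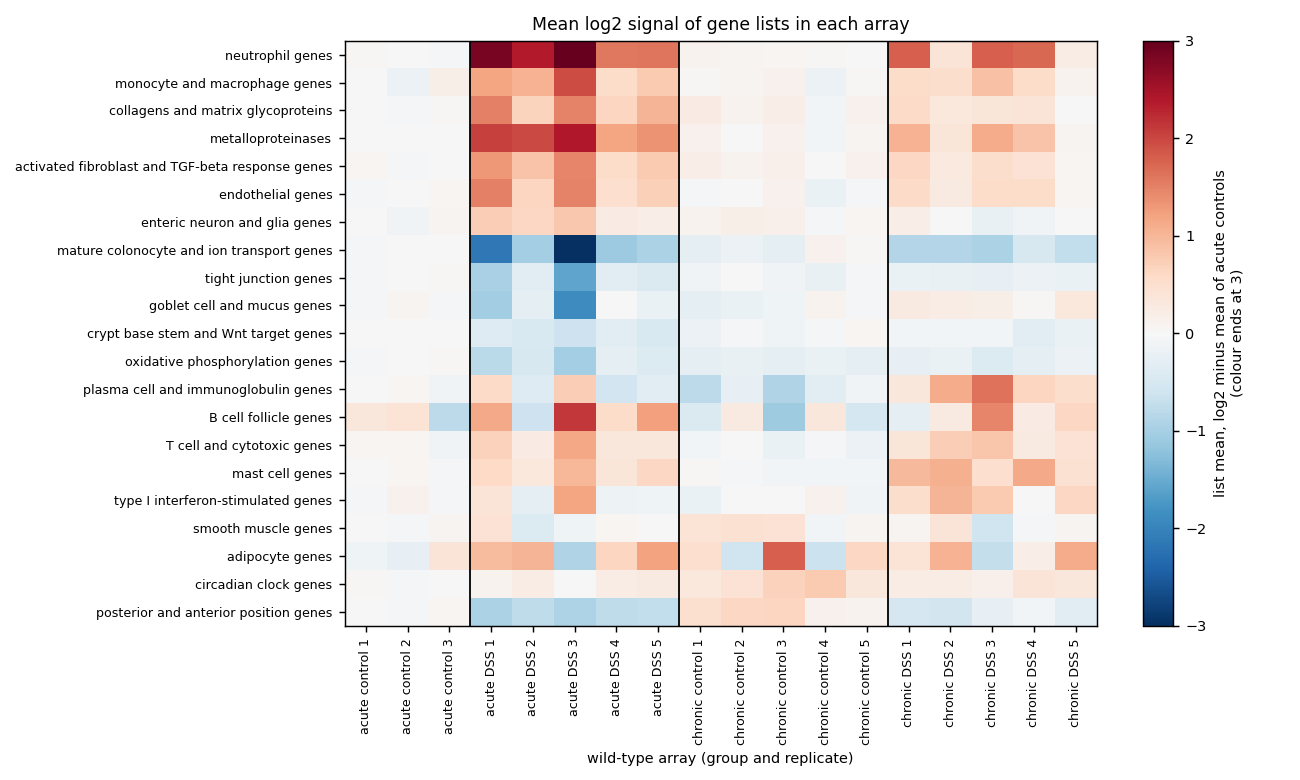
Mean log2 signal of 21 gene lists in each of the 18 arrays, minus the mean of the 3 acute controls (colour ends at 3). Acute DSS replicates 1 and 3 are lowest for colonocyte genes (9.49 and 8.42) and high for matrix genes (11.35 and 11.33), and plasma cell genes are highest in chronic DSS replicates 2 and 3 (9.94 and 10.46).

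Genes of antibody-secreting cells rose in chronic DSS. Of 14 plasma cell and immunoglobulin genes 12 rose in chronic DSS (85.7% against 5.79% of all genes), 2 rose and 1 fell in acute DSS, and 7 passed higher in the difference of responses (50.0% against 9.3%). The count was 9 without acute DSS 1 and 3, 7 without chronic DSS 2 and 5, 6 with series 11 controls alone and 6 to 8 without single arrays. Ighm, the mu heavy chain, stood at 11.49, 11.46 and 10.25 in acute controls, 10.86, 8.80, 11.72, 8.03 and 8.79 in acute DSS, 8.91, 10.12, 7.19, 9.52 and 10.02 in chronic controls and 10.53, 12.61, 12.97, 11.96 and 11.23 in chronic DSS. All chronic DSS arrays lay above all chronic controls, while acute DSS spread from below its controls to above them. Its chronic rise was 2.71 (6.54-fold), the acute value -1.43 did not pass (adjusted p = 0.157), and the difference was 4.14 ± 1.07 (adjusted p = 0.00852). Chronic controls lay 1.92 below acute controls, a control difference that did not pass (adjusted p = 0.143) but makes up part of the 4.14.

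Jchain, which joins IgM and IgA into polymers, stood at 11.46, 11.23 and 11.33 in acute controls, 12.05, 9.80, 12.34, 10.40 and 10.65 in acute DSS, 9.35, 10.56, 9.81, 10.88 and 11.31 in chronic controls and 11.94, 12.53, 12.82, 12.18 and 12.08 in chronic DSS. Chronic DSS lay above every chronic control, and acute DSS fell into 2 high and 3 low arrays. Its difference was 2.21 ± 0.59 (adjusted p = 0.0104). The kappa segments Igkv10-96 and Igkv4-55 differed by 2.83 ± 0.84 and 2.24 ± 0.56 (adjusted p = 0.02 and 0.00682), and Tnfrsf17, the survival receptor BCMA of plasma cells, by 1.47 ± 0.28 (adjusted p = 0.00116), falling in acute DSS (-0.64) and rising in chronic DSS (0.83). These 5 calls were kept in every alternative run. Igkv10-96 stood at 10.70 to 11.28 in acute controls and 7.56 to 10.80 in chronic controls. Its DSS arrays overlapped, at 9.28 to 12.22 in acute and 11.24 to 12.36 in chronic DSS. Tnfrsf17 stood at 7.39 to 7.63 in acute controls and 6.74 to 7.26 in chronic controls. As for Ighm, lower chronic controls make up part of the differences of Jchain, Igkv10-96 and Tnfrsf17. Igha, the IgA heavy chain, rose by 2.80 in chronic DSS, and its difference of 1.94 ± 0.88 did not pass (adjusted p = 0.123). Immunoglobulin segments are similar in sequence, so single segments are uncertain; of 11 measured immunoglobulin genes 11 rose in chronic DSS, none passed in acute DSS and 5 passed higher in the difference. None of 19 B cell follicle genes passed in the difference of responses. Among these 2 rose in acute DSS and 1 in chronic DSS, where 19.4% and 5.79% of all genes did. Their mean ranged from 7.58 to 10.31 in acute DSS and from 7.92 to 9.66 in chronic DSS. The 2 arrays high for Jchain in acute DSS, replicates 1 and 3, had B cell means of 9.32 and 10.31, beside 9.43 in replicate 5, and the share of lymphoid tissue in each piece of colon was not measured.

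Among other lymphocyte, mast cell and interferon genes few differences of responses passed in the main fit. Over all genes 5.79% rose in chronic DSS, 19.4% rose in acute DSS and 9.3% passed higher in the difference. Of 27 T cell and cytotoxic genes 18 rose in chronic and 10 in acute DSS, and 1 passed in the difference, Gata3 of type 2 helper cells (0.60 ± 0.17, adjusted p = 0.0151), whose chronic DSS arrays lay above both its controls and acute DSS. Of 12 mast cell genes 8 rose in chronic and 4 in acute DSS, and 1 passed in the difference. That count was 5 without chronic DSS 3 or with array medians subtracted, 6 with array weights and 0 on wild-type arrays alone, with series 11 controls alone or without any 1 of 12 arrays, which were all but acute DSS 3 and 5, chronic DSS 3 and 5 and chronic controls 1 and 2. The mast cell proteases Mcpt2 and Cpa3 rose 3.03 and 1.65 in chronic DSS, and their differences were 1.19 ± 0.71 and 1.02 ± 0.37 (adjusted p = 0.254 and 0.056; 95% intervals -0.26 to 2.64 and 0.26 to 1.78). Of 21 type I interferon-stimulated genes 10 rose in chronic DSS, 2 rose and 2 fell in acute DSS, and 2 passed higher in the difference (9.52%, close to the background). The count was 12 with array weights, 5 without acute DSS 1 and 3, 4 without acute DSS 3 and 1 with series 11 controls alone. Among the 2 was Oas1a, a sensor of double-stranded RNA, at 8.04 to 8.54 in acute DSS and 8.75 to 9.34 in chronic DSS (0.93 ± 0.19, adjusted p = 0.00219). Of 18 unfolded protein and stress genes 10 rose in chronic DSS and 3 in acute DSS, and 3 passed higher in the difference (7 with array weights). Atf3, a stress transcription factor, fell in acute DSS (-1.28) and did not pass in chronic DSS (0.14), a difference of 1.42 ± 0.27 (adjusted p = 0.000995). Sdf2l1, of the endoplasmic reticulum, did not pass in acute DSS (-0.40) and rose in chronic DSS (0.61), a difference of 1.01 ± 0.27 (adjusted p = 0.0113). Its chronic controls all lay below its acute controls, which makes up part of the 1.01.

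Some genes rose in chronic DSS without an acute counterpart or against an acute fall. Cd177, a surface glycoprotein known from neutrophils, stood at 9.91, 10.38 and 10.15 in acute controls, 9.63, 10.58, 9.47, 11.18 and 10.26 in acute DSS, 9.60, 9.62, 9.76, 9.64 and 9.72 in chronic controls and 11.68, 11.59, 12.26, 11.73 and 12.06 in chronic DSS. Chronic DSS lay above every other array, and did so in replicates 2 and 5 as well, where neutrophil genes were lowest. The chronic rise was 2.20 (4.59-fold), the acute value 0.08, and the difference 2.12 ± 0.46 (adjusted p = 0.00281). Ceacam10, of the carcinoembryonic antigen family, stood at 10.02, 10.16 and 10.13 in acute controls, 8.09, 9.78, 8.11, 9.72 and 8.45 in acute DSS, 9.65 to 10.20 in chronic controls and 10.91, 11.06, 11.70, 10.97 and 11.63 in chronic DSS. Acute DSS lay below both control groups except that replicates 2 and 4 reached the lower chronic controls, and chronic DSS lay above them all. The gene fell by -1.27 in acute and rose by 1.29 in chronic DSS, a difference of 2.56 ± 0.45 (adjusted p = 0.000568). Apol7c, an apolipoprotein L, stood at 7.91 to 8.42 in acute controls, 6.08 to 7.13 in acute DSS, 6.98 to 7.82 in chronic controls and 7.83 to 8.95 in chronic DSS, a difference of 2.36 ± 0.45 (adjusted p = 0.000995). Muc4, a membrane mucin, fell by -0.88 and rose by 0.91 (1.78 ± 0.47, adjusted p = 0.00983). Without acute DSS 1 and 3 its difference was 1.07 (adjusted p = 0.0464), and with series 11 controls alone 1.99 (adjusted p just under 0.05). Further genes with this pattern of fall and rise were the nucleotide kinase Guk1 (1.08 ± 0.19), Alkal1 (1.02 ± 0.18), which encodes a ligand of the receptor ALK, the tetraspanin Tspan13 (1.00 ± 0.24) and the Arp2/3 subunit Arpc5l (0.87 ± 0.10, adjusted p = 3.42e-05). In Cd177, Apol7c, Guk1, Alkal1, Tspan13 and Arpc5l every chronic control lay below every acute control, which makes up part of their differences. For Arpc5l the control difference was -0.52 (adjusted p = 0.000123), and chronic DSS (8.14 to 8.40) overlapped acute controls (8.26 to 8.51).

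The opposite pattern, a rise in acute and a fall in chronic DSS, was led by claudin 1 (Cldn1), a barrier-forming tight junction protein. It stood at 7.54, 7.24 and 7.61 in acute controls, 10.11, 7.39, 9.20, 7.58 and 8.70 in acute DSS, 7.97, 7.99, 8.20, 7.35 and 7.37 in chronic controls and 6.61, 6.82, 6.73, 6.83 and 6.61 in chronic DSS. In acute DSS 3 arrays were high and 2 at control level, whereas all chronic DSS arrays lay below every other array. The responses were 1.13 and -1.05, and the difference -2.19 ± 0.48 (adjusted p = 0.00292). It was the 1 tight junction gene that passed lower. Cd163, the haemoglobin scavenger receptor of resident macrophages, stood at 6.98, 6.67 and 7.42 in acute controls, 7.67, 8.69, 7.37, 7.46 and 7.75 in acute DSS, 7.55, 7.41, 7.59, 6.84 and 7.05 in chronic controls and 6.50, 6.52, 6.48, 6.87 and 6.51 in chronic DSS. Chronic DSS lay below acute DSS without overlap and touched its controls only through replicate 4. The difference was -1.47 ± 0.30 (adjusted p = 0.00171), while 5 of the 19 monocyte and macrophage genes rose and 1 fell in chronic DSS. The receptor kinase Musk (-1.46 ± 0.29), Spaca6 (-1.45 ± 0.21), the axon guidance factor Sema3a (-1.37 ± 0.28), Pid1 (-1.23 ± 0.26) and the splicing factor Ptbp2 (-1.23 ± 0.20, adjusted p = 0.000285) passed in the same pattern. In Sema3a and Pid1 every chronic control lay above every acute control, which makes up part of their differences. The number of genes with opposite signs, 100, was 49 without chronic DSS 3, 46 without chronic control 3, 63 without chronic control 1, 52 without acute control 2 and 64 without acute control 3.

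Differences between the control groups carried part of the result. Chronic and acute controls differed in 1400 genes (7.02%; 698 higher in chronic controls, 3.5%, and 702 lower, 3.52%). The count was 393 without acute control 2, 380 without acute control 3, 853 without chronic control 1 and 914 without chronic control 4. Among the 3392 genes the control difference was larger than the difference between the DSS groups in 941 (27.7%) and passed in 603. Clock genes were of this kind: 7 of 16 were higher in chronic controls and none lower, and 4 passed lower in the difference of responses, where 7.71% of all genes did, and 1 higher. Without acute control 3 only 1 passed lower. Nr1d1, the clock repressor REV-ERB alpha, stood at 11.29, 10.16 and 10.72 in acute controls, 10.68, 11.36, 10.98, 11.26 and 11.11 in acute DSS, 12.40, 12.57, 12.42, 12.33 and 11.60 in chronic controls and 11.41, 10.52, 10.81, 10.63 and 10.83 in chronic DSS. The chronic controls lay above all other arrays, and the other 3 groups overlapped. Its difference of responses was -1.78 ± 0.44 (adjusted p = 0.00696) with a control difference of 1.54. Dbp, another clock output, was 2.10 higher in chronic controls, and its difference of responses of -1.30 ± 0.56 did not pass (adjusted p = 0.103). The hour of sampling is not in the labels. The transcription factor Osr1 (-1.65 ± 0.39), Fmo1 (-1.37 ± 0.28) and Lix1 (-1.26 ± 0.28) fell in chronic DSS and not in acute DSS (adjusted p of the difference = 0.00553, 0.00182 and 0.00379), with control differences of 1.25, 0.73 and 0.80 that passed.

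Hoxd12, a posterior position gene, belonged here as well, with a control difference of 1.48 and a difference of responses of -1.26 ± 0.37 (adjusted p = 0.0202). Its call ended without acute control 2 (-1.14, adjusted p = 0.0675), in wild-type arrays alone (adjusted p = 0.085) and without acute DSS 1 and 3 (adjusted p = 0.0522). Hoxd13 was 1.94 higher in chronic controls, and its difference of responses did not pass (-1.84 ± 0.75, adjusted p = 0.0844). The 2 animal series of chronic controls were unlike in this respect. The mean of position genes was 9.11, 9.27 and 9.28 in series 11 and 8.77 and 8.74 in series 14, and that of smooth muscle genes 11.40 to 11.43 and 10.89 to 11.07. With series 11 controls alone, which keeps the chronic response within 1 series, Hoxd12 differed by -1.97, Hoxd13 by -2.82, Osr1 by -2.01 and Nr1d1 by -1.98, and 4 of 16 position genes passed lower instead of 1. The part of sampled colon position in these values was not tested.

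A shared response remained beside these differences. In 530 genes both phases rose and in 910 both fell without a passing difference of responses, which does not show that the responses were equal. Reg3g, an antibacterial lectin, stood at 5.85, 6.35 and 4.94 in acute controls, 10.44, 13.57, 7.56, 11.80 and 11.61 in acute DSS, 5.06 to 5.87 in chronic controls and 11.00, 11.44, 10.13, 8.57 and 12.54 in chronic DSS. Both DSS groups lay above all controls and overlapped each other widely. The rises were 5.28 and 5.38, with a difference of 0.10 ± 1.44 and a 95% interval of -2.84 to 3.04. Reg3b rose 5.26 and 4.39, the goblet cell peptide Retnlb 3.32 and 4.48, Il1b 3.55 and 2.50 and the retinol dehydrogenase Dhrs9 2.36 and 3.52. Plet1, an epithelial surface protein, rose 2.91 in acute and 4.91 in chronic DSS (difference 1.99 ± 0.80, adjusted p = 0.0807). Mptx1, a mucosal pentraxin, stood at 12.54 to 12.87 in acute controls, 5.17 to 5.73 in acute DSS, 11.97 to 13.05 in chronic controls and 5.41, 10.26, 6.87, 6.24 and 8.00 in chronic DSS. Acute DSS arrays lay together far below controls, while chronic DSS spread from their level upward. It fell by -7.29 and -5.04 (difference 2.25 ± 1.40, adjusted p = 0.274). The transglutaminase Tgm3 fell by -5.42 and -3.28 and the cytochrome P450 Cyp2f2 by -3.46 and -2.85.

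Of the 30 genes with the largest differences of responses, 15 in each direction, 16 kept their calls in every alternative run. In 4 (Cxcl2, Hp, Hgf and Reg4) the call ended only under alternatives other than leaving out 1 array. In the other 10, which include Saa3, Mmp8 and Il6, it ended without 1 of 4 to 13 single arrays, depending on the gene. The 7 of these not described above were Chil3 (-2.73 ± 0.87) and Cemip (-2.58 ± 0.84) on the lower side and Ccn3 (2.54 ± 0.81), Igkv5-43 (2.50 ± 0.83), Igkv8-30 (2.38 ± 0.80), Mettl7b (2.33 ± 0.83) and Sycn (2.24 ± 0.70) on the higher side. Adipocyte means varied between animals of the same group, from 7.48 to 9.59 in acute DSS and from 7.73 to 10.18 in chronic controls. The lipid droplet gene Plin4 nevertheless passed in every alternative run (-1.36 ± 0.37, adjusted p = 0.0126), and the part of fat in it and in Cd36 and Angptl4 was not tested.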

How the data were processed

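The authors deposited log2 signals per transcript cluster. Per the submitters' processing notes they are RMA values (robust multi-array average); the version is not given in the sources used here. The log base is not stated; 2 was read from RMA's usual output and from the range of 3.03 to 14.96. Of 35511 clusters, 21789 carried 1 gene symbol in the platform annotation, 1621 several and 12101 were not listed. Where a gene had several clusters (999 genes) the one with the highest mean was kept, leaving 19938 genes. Medians of the 18 arrays lay between 7.67 and 7.76, and no array was left out. Mean correlations within groups were 0.951 to 0.995.

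A linear model covered the 37 arrays, with 1 mean for each combination of genotype, phase and treatment (limma 3.58.1, R 4.3.3; 29 residual and 3.18 prior degrees of freedom), and p values were two-sided and adjusted over all genes. Replicates were taken as separate animals, since each title carries its own animal number. Arrays hold no molecule counts, so their number limits precision. The fit was tested on simulated data.

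The members and 45 gene lists (849 symbols, 727 measured) were chosen with earlier results of these data known. Named genes were the 15 largest differences in each direction, up to 3 members of each list with the largest difference, up to 8 in each direction with opposite responses, with a chronic response only, or with shared responses, and Timp1 to Timp4; not all are described, and predicted genes were not named. Alternatives were other priors, scalings, weights, filters and clusters, wild-type arrays only, animal series as a covariate or series 11 controls only, and leaving out each array. The fit with series 11 controls only also used wild-type arrays only. Leaving out acute DSS 1 and 3 or chronic DSS 2 and 5 was chosen after seeing the data.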

Additional observations from a re-analysis of the deposited data

Results flagged for a closer look

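The acute and chronic responses differed in 3392 genes by limma's test of the difference itself, and in 100 genes both responses passed with opposite signs.

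Single arrays that stood apart from the other 4 of their group were looked for in 204 groups of 5 arrays, and 6 were found by Dixon's test, which marks about 1 group in 20 by chance. Cd163 was 8.69 in acute DSS replicate 2 (others 7.37 to 7.75) and 6.87 in chronic DSS replicate 4 (others 6.48 to 6.52). Nr1d1 was 11.60 in chronic control replicate 5 (others 12.33 to 12.57). The mean of adipocyte genes was 7.48 in acute DSS replicate 3 (others 9.02 to 9.59), that of mast cell genes 6.71 in chronic control replicate 1 (others 6.59 to 6.62) and that of colon identity genes 12.24 in chronic DSS replicate 3 (others 12.61 to 12.74).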

How the results depend on the processing

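All 3392 genes kept the sign of their difference of responses in every alternative in which they were tested (2952 were tested after a filter on dim genes). The count of passing genes was 1491 without acute DSS 1 and 3, and 1937 to 4305 without single arrays. The acute response had 5824 to 8428 genes without single arrays. The chronic response had 4953 with array weights, 4354 with variance weights by group and 2030 to 3238 without single arrays. The control difference had 5788, 3889, 888 with series 11 controls only, and 380 to 1507. Genes with opposite responses numbered 317, 209 and 46 to 116. The cause of these shifts was not tested. Of 83 named genes that passed, 59 kept the call in every alternative in which they were tested (29 or 30 each). Differences near 0 changed sign: Mir125b-1 was 0.0177 with cyclic loess, 0.072 with array medians subtracted, 0.0374 without chronic DSS 2 and 5 and -0.0607 to 0.0491 without single arrays. Reg3g was -0.40 with array weights, -1.23 without acute DSS 1 and 3, -0.73 without chronic DSS 2 and 5 and -0.7563 to 0.7441 without single arrays. Slc37a2 (-0.09) was 0.0577 with animal series as a covariate or series 11 controls only, 0.1836 without acute DSS 1 and 3, 0.0353 without chronic DSS 2 and 5 and -0.339 to 0.0949 without single arrays. No paired analysis was possible because the animal numbers occur once each and replicate numbers follow accession order. Leaving out arrays with deviating Y-linked signal was not run, since none of the 18 stood apart (means 5.13 to 5.43).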

Other observations

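Some lists not described above leaned one way in sign, with few single calls, beside 9.3% of all genes passing higher and 7.71% lower. All 16 cholesterol synthesis genes had a positive difference of responses (median 0.50), of which 3 passed (1 without acute DSS 1, acute DSS 3, acute control 2 or acute control 3, and 5 without acute DSS 4), with 6 falling in acute and none in chronic DSS. All 18 complement genes had a negative difference (median -0.49), of which 2 passed (1 without any of the same 4 arrays or 4 without acute DSS 4), with 14 rising in acute and 4 in chronic DSS. Of 35 xenobiotic metabolism genes 31 were positive (median 0.60), and the 3 that passed (8.57%) were no larger a share than over all genes (7 passed without acute DSS 4). Of 17 small intestine genes, whose differences ran from -0.99 to 2.87, 3 passed lower (17.6%), and none without acute control 2, acute control 3 or chronic DSS 2, on wild-type arrays alone or with series 11 controls alone. In acute DSS 3 of them rose and 4 fell. Of 18 squamous anal epithelium genes, from -0.41 to 0.33, 1 passed lower, and none without acute control 2 or 3.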
